A study of Macaca fascicularis with 48 samples.

Results

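Cerebral cortex of cynomolgus monkeys (Macaca fascicularis) that had received the isotype control antibody was compared between the harvest days of a study of a TREM2 agonist antibody. The comparison holds the 12 of 24 animals, and the 24 of 48 libraries, whose agent label reads Anti-gD/200mg/kg. Brain was taken from 6 of these animals on day 4 and from 6 on day 28, and each gave 2 libraries from different punches of the frontal cortex. All 12 had been given anti-gD once, intravenously, at 200 mg/kg, and the other 12 animals had the same dose of hPara.09, the agonist, on the same schedule (its agent label reads Para09.v2). There was no undosed group, so what the antibody dose itself did cannot be told apart from time, and an animal was sampled on 1 day only, so that a day difference is a difference between separate groups of animals. Harvest day cannot be told apart either from anything else that went with it, since age, sex, housing and dates of extraction or sequencing are not in the labels used here.

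An isotype control has the constant region of the test antibody and is chosen to have no target in the tissue. TREM2 is a receptor on microglia, the resident macrophages of the brain, and an agonist of it is read against such controls on each day. The control days alone then give the amount by which cortex differs between harvest days without the agonist. Bulk cortex RNA mixes neurons, astrocytes, oligodendrocytes, microglia and vessel cells, and fewer cells of a type and less RNA per cell cannot be told apart in it. The punches also differ in how much grey and white matter they hold, which no label records.

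Each library gave counts for 28623 Ensembl gene IDs. Total counts were 12137146 to 25998239 per library (median 20965256.5) and 32116548 to 50216283 per animal. In the anti-gD animals 5876 IDs had no read, 17225 had a read in all 12 animals, and 0 had a read in all 6 animals of one day and in none of the other. None of the IDs could be paired with a gene name (0 of 28623 matched the names table used here), so cell type markers were not checked against the cortex label, and genes are given by ID with no function. The library of day 4 animal 5 with title number 29 stood apart. It was the shallowest, and 36.0% of its counts fell on the 13 most abundant IDs, against 12.7% to 31.0% in the other anti-gD libraries.

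Control cortex showed no gene whose level differed between day 4 and day 28 past the threshold when the 2 libraries of each animal were summed. Of 16275 genes tested, 0 (0%) passed an adjusted p of 0.05 in edgeR's quasi-likelihood test with Benjamini-Hochberg adjustment, and the smallest adjusted p was 0.502. The unadjusted p was under 0.05 for 1240 genes (7.62%), of which 699 were higher and 541 lower at day 28, where an even spread of p-values gives 814. In limma voom 0 genes passed and 1225 had an unadjusted p under 0.05. DESeq2 called 37 genes (0.202% of the 18343 genes to which it gave an adjusted p), 23 higher and 14 lower at day 28.

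The differences were small for most genes. The median log2 fold change over all genes tested was −0.0012 and the median absolute log2 fold change was 0.13. The median standard error of the day difference was 0.16. Only 834 genes (5.12%) were past 1.5-fold and 197 (1.21%) past 2-fold in either direction. The 95% interval of the day difference lay inside 2-fold for 87.1% of genes and inside 1.5-fold for 62.3%. Among the 9540 genes that averaged 10 CPM or more (CPM being the count relative to the TMM-scaled library total) these shares were 97.3% and 84.9%, so for most well-measured genes a doubling between days lies outside the interval. The biological coefficient of variation, which is the spread between animals of a day beyond counting error, was 24.6% in the fit of both days, 24.0% at day 4 alone and 22.3% at day 28 alone.

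A smaller group of genes separated the days completely. In 60 genes (0.369%) every day 28 animal lay on one side of every day 4 animal, above in 33 and below in 27. Of these, 58 had an unadjusted p under 0.05. Groups of this size separate completely in a share of 0.00216 of relabellings, the smallest exact permutation p they can give. Much of the 60 can thus arise without any day difference. Whether 60 is more than relabelling gives was not tested. The 1240 genes with an unadjusted p under 0.05 had a median absolute log2 fold change of 0.45, and 430 of them were past 1.5-fold and 146 past 2-fold. Of the 1133 that were tested in both libraries of the animals taken separately, 1121 had the same sign in both. In 260 of them the unadjusted p was under 0.05 in both. The genes had been chosen on the sums of these same libraries, which fixes much of this agreement. Each animal also gave both libraries, so this is no second set of animals.

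**Figure D1:**
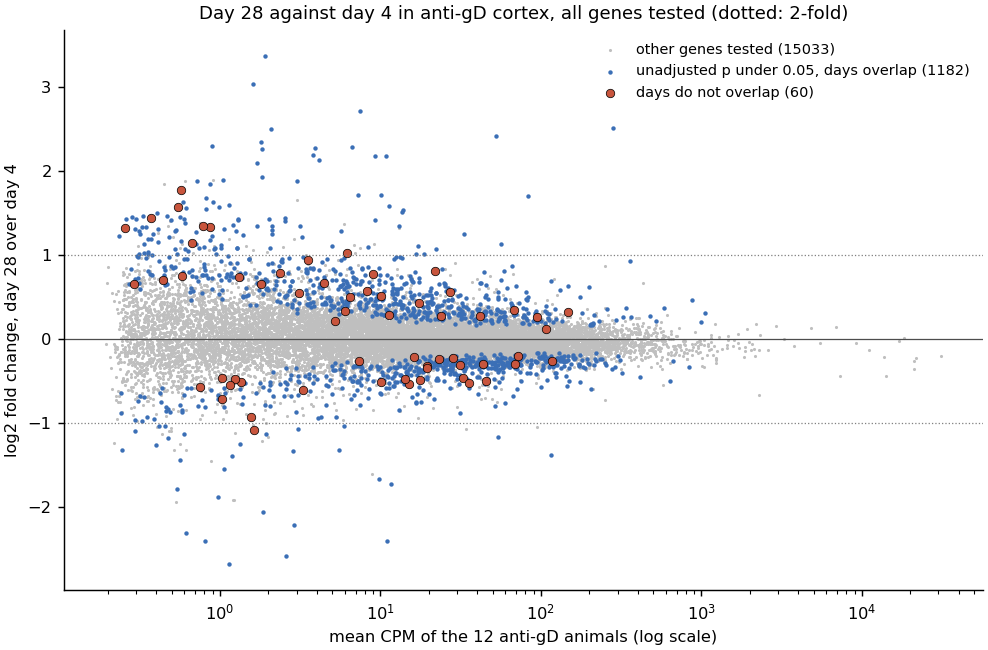
Mean CPM of the 12 anti-gD animals (log scale) against the log2 fold change of day 28 over day 4 for each of the 16275 genes tested. Blue points have an unadjusted p under 0.05, the 60 red points are genes whose days do not overlap, and most of these lie within 2-fold (dotted lines) while the widest spread is among genes under 10 CPM.

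The IDs with the smallest p were taken as examples, 2 in each direction, and none of the 4 passed the adjustment in edgeR (adjusted p = 0.502 for each). ENSMFAG00000036375 (2230 bases wide) lay between 2.87 and 4.73 CPM at day 4 (median 4.23) and between 4.77 and 10.7 CPM at day 28 (median 8.50). Its day 28 animals were all above its day 4 animals, though the lowest of them, animal 17, stood at 4.77 CPM, next to day 4 animal 6 at 4.73. When scaled over all 24 animals, animal 17 stood at 4.76 CPM and animal 6 at 4.81, so the days then overlapped. The log2 fold change was 1.03 (SE 0.19, 95% interval 0.63 to 1.43).

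ENSMFAG00000037814 (7183 bases) lay between 18.1 and 26.6 CPM at day 4 (median 21.7) and between 28.0 and 42.4 CPM at day 28 (median 30.6). Animal 15 was the highest, and the remaining 5 day 28 animals were at 34.1 CPM or below. The groups did not overlap, and the log2 fold change was 0.56 (SE 0.12).

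Both IDs taken as lower were more tightly grouped at day 28 than at day 4 in the sums, and a choice by smallest p favours a small spread. ENSMFAG00000000487 (3116 bases) lay between 33.2 and 47.1 CPM at day 4 (median 36.9) and between 24.1 and 30.9 CPM at day 28 (median 28.0), with a log2 fold change of −0.46 (SE 0.10). Day 4 animal 4 was alone at 47.1 CPM, and the other day 4 animals reached 37.8. ENSMFAG00000041472 (5555 bases) lay between 33.0 and 51.0 CPM at day 4 (median 42.8) and between 27.4 and 30.8 CPM at day 28 (median 29.1), with a log2 fold change of −0.52 (SE 0.11). Its SD was 7.52 CPM at day 4 and 1.21 CPM at day 28 (n = 6 each), and day 4 animals 5 and 6, at 33.0 and 33.3 CPM, were the nearest to day 28. In single libraries the SDs at day 4 and day 28 were 7.41 and 2.47 CPM for title numbers 1 to 24. They were 10.3 and 3.54 CPM for title numbers 25 to 48.

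**Figure D2:**
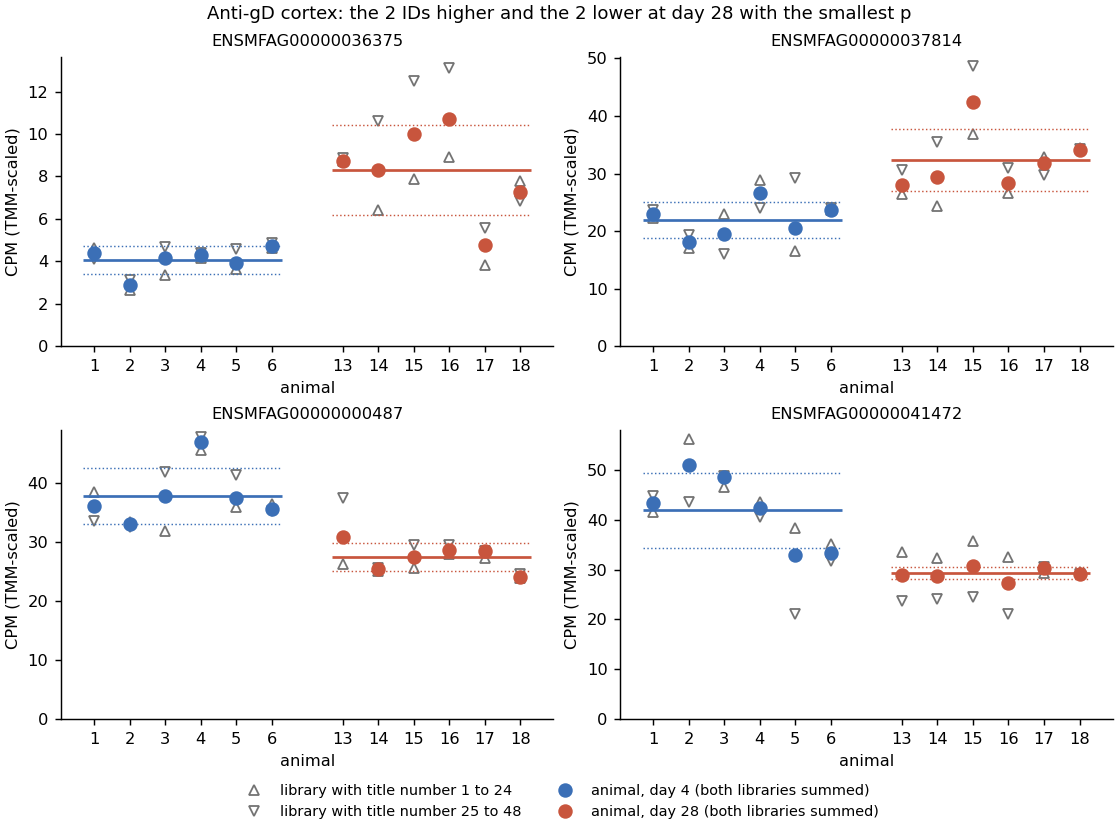
CPM of the 4 IDs in each anti-gD animal. Filled points are both libraries of an animal summed, open triangles its 2 libraries scaled separately, solid lines the mean and dotted lines 1 SD of the 6 animals of a day; the summed values of the days do not overlap in any panel, while those of single libraries do in each panel.

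All 4 of these IDs were among the 37 genes that DESeq2 called, with DESeq2 adjusted p-values of 0.00232 for ENSMFAG00000036375, 0.037 for ENSMFAG00000037814, 0.015 for ENSMFAG00000000487 and 0.0179 for ENSMFAG00000041472. Of the 37 genes 36 were also tested in edgeR, where their unadjusted p-values ran from 4.42e-05 to 0.00151, every one ranked 45th or better, and the largest adjusted p was 0.530. All 37 ranged from 0.290 to 68.5 CPM (median 6.72), with absolute log2 fold changes of 0.30 to 3.62 (median 0.76) in DESeq2. In 17 of the 36 the days did not overlap. The genes called by DESeq2 and tested in edgeR were thus near the top of the edgeR order too, without passing there. Both tools used the same summed counts, so this is no separate support.

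The 2 libraries of an animal have title numbers that differ by 24, and the day difference was repeated within title numbers 1 to 24 and within 25 to 48, each with 1 library from all 12 animals. The labels used here do not say whether the title ranges mark a punch position, a batch or a run, so differences between the sets, or between the libraries of an animal, cannot be told apart from these. With title numbers 1 to 24, 0 of 15462 genes passed in edgeR (smallest adjusted p = 0.208) and 2266 (14.7%) had an unadjusted p under 0.05, of which 1016 were higher and 1250 lower at day 28. With title numbers 25 to 48, 0 of 15213 passed (smallest adjusted p = 0.893) and 698 (4.59%) had an unadjusted p under 0.05, of which 453 were higher and 245 lower. An even spread of p-values gives 773 and 761. Genes lower at day 28 were thus the more numerous in the first set and genes higher at day 28 in the second. DESeq2 and limma were not run within the sets.

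The difference between the sets was tested itself, with the animal as a block. In edgeR 0 of 15858 genes passed (smallest adjusted p = 0.575) and 1326 (8.36%) had an unadjusted p under 0.05, 611 with a more positive and 715 with a more negative day difference in title numbers 25 to 48. In limma voom 1 gene passed. The counts depended on animal 5, which gave the library that stood apart, and without it 4 genes passed (smallest adjusted p = 0.0288) and 3554 (22.3%) had an unadjusted p under 0.05. Without day 4 animal 1, 2 or 3 or day 28 animal 16 613 to 828 genes had an unadjusted p under 0.05, with 0 passing in edgeR.

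The 4 genes, named after their values were seen, were ENSMFAG00000010715, ENSMFAG00000039435, ENSMFAG00000037083 and ENSMFAG00000038079, and the first was also the gene that limma voom called with all animals. With all 12 animals ENSMFAG00000010715 lay at 1.75 to 2.98 CPM on day 4 and 2.97 to 4.15 CPM on day 28 in title numbers 1 to 24, and at 1.70 to 4.17 CPM and 1.07 to 2.35 CPM in title numbers 25 to 48. Day 28 was thus the higher in one set and the lower in the other, and its summed log2 fold change was 0.09 (SE 0.16). The other 3 had the same signs, positive in title numbers 1 to 24 (log2 fold changes of 0.47, 0.39 and 0.55 in the order given) and negative in 25 to 48 (−0.70, −0.41 and −0.86), with summed values of 0.06, 0.10 and 0.06. None of these single-set values passed in edgeR. The 4 genes had been picked for a difference between the sets in these same libraries, which fixes much of the opposite signs.

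The 4 IDs chosen on the sums had the same sign in both sets. For ENSMFAG00000036375 the log2 fold change was 0.91 (SE 0.21) in title numbers 1 to 24 and 1.15 (SE 0.22) in 25 to 48. For ENSMFAG00000037814 it was 0.47 and 0.62, for ENSMFAG00000000487 −0.50 and −0.41, and for ENSMFAG00000041472 −0.44 and −0.59. The choice on the sums fixes much of this, since the sums hold both libraries. The edgeR interaction with the set had adjusted p-values of 0.668, 0.765, 0.786 and 0.772.

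A second group of 4 IDs had the smallest p in title numbers 1 to 24 alone, again with an adjusted p of 0.208 each in edgeR, and was smaller in the other library of the same animals. ENSMFAG00000000942 (2190 bases) lay at 12.5 to 16.1 CPM on day 4 (median 14.3) and at 18.4 to 24.2 CPM on day 28 (median 22.4) in title numbers 1 to 24, a log2 fold change of 0.59 (SE 0.11). In title numbers 25 to 48 it lay at 6.80 to 17.4 CPM (median 15.4) and 7.57 to 16.3 CPM (median 13.2), and its log2 fold change was −0.13 (SE 0.22). The lowest values there were day 4 animal 5 and day 28 animal 16. ENSMFAG00000040043 (7492 bases) went from 78.9 to 119 CPM on day 4 to 124 to 162 CPM on day 28 in title numbers 1 to 24, with no overlap, and the ranges were 53.2 to 111 CPM and 60.5 to 111 CPM in 25 to 48. Its log2 fold changes were 0.55 (SE 0.10) and 0.14 (SE 0.18).

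The 2 lower IDs of this group also separated the days in title numbers 1 to 24 only. ENSMFAG00000045371 (2988 bases) lay at 131 to 174 CPM on day 4 and 96.6 to 115 CPM on day 28 there, and at 109 to 202 CPM and 107 to 184 CPM in 25 to 48, with log2 fold changes of −0.50 (SE 0.08) and −0.18 (SE 0.17). ENSMFAG00000042430, a narrow gene of 425 bases, lay at 18.1 to 28.7 CPM on day 4 and 15.0 to 17.7 CPM on day 28, and at 16.3 to 26.4 CPM and 11.3 to 21.8 CPM in 25 to 48, with log2 fold changes of −0.59 (SE 0.11) and −0.31 (SE 0.19). The interaction with the set did not pass for any of the 4 (edgeR adjusted p of 0.575 to 0.595), and they had been picked for their values in one set, so the smaller values in the other are a description only.

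**Figure D3:**
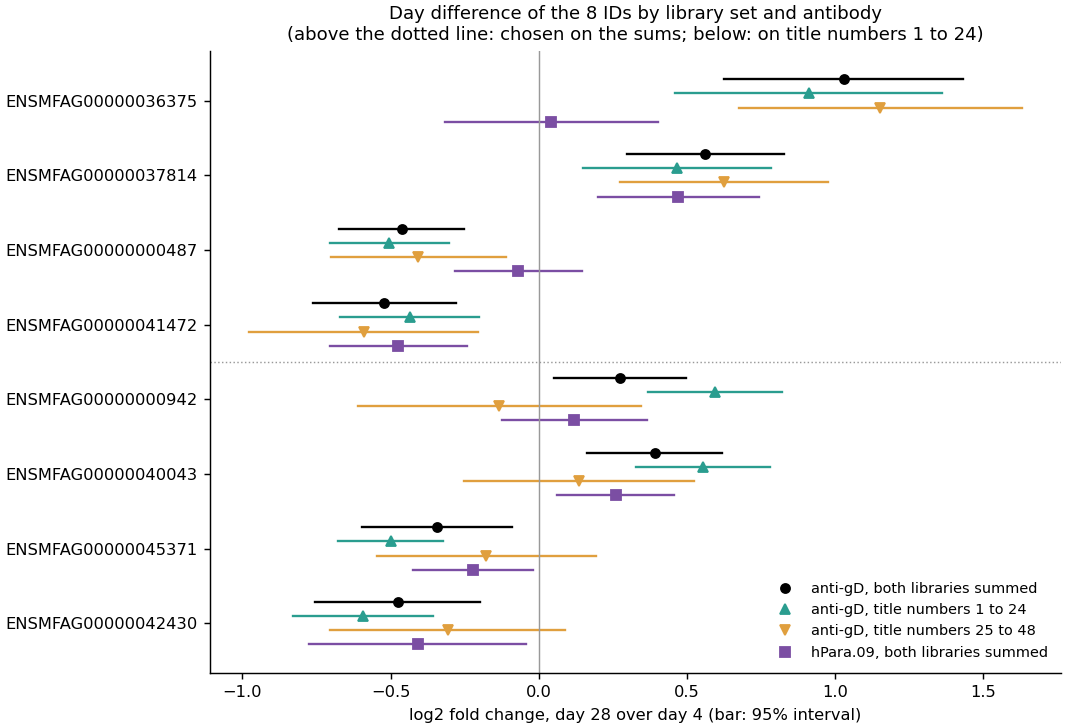
Log2 fold change of day 28 over day 4 (points) with 95% intervals (bars) for the 8 IDs, in the summed anti-gD libraries, in each anti-gD library set and in the hPara.09 animals (from the fit of all 24 animals). The 4 IDs above the dotted line lie on the same side of 0 in both sets, and ENSMFAG00000000942 moves from 0.59 in title numbers 1 to 24 to −0.13 in 25 to 48.

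Gene width, a column of the deposited tables in bases, went with the direction of the day difference. The genes tested were put into 4 equal bins by width. At an unadjusted p under 0.05 the narrowest bin (59 to 1535 bases) held 100 genes that were higher at day 28 and 237 that were lower, with a median log2 fold change of −0.07. The next (1536 to 2712 bases) had 158 higher and 156 lower with a median of −0.01, and the one after (2713 to 4514 bases) had 224 higher and 95 lower with a median of 0.01. The widest (4515 to 112593 bases) had 217 higher and 53 lower, with a median of 0.04.

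Both library sets showed the same order. With title numbers 1 to 24 the narrowest genes had 158 higher and 511 lower and the widest 327 higher and 128 lower. With title numbers 25 to 48 the counts were 78 higher and 96 lower among the narrowest and 120 higher and 37 lower among the widest. The medians went from −0.08 to 0.03 in the first set and from −0.06 to 0.04 in the second. The counts are over genes, which share animals, and carry no test.

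**Figure D4:**
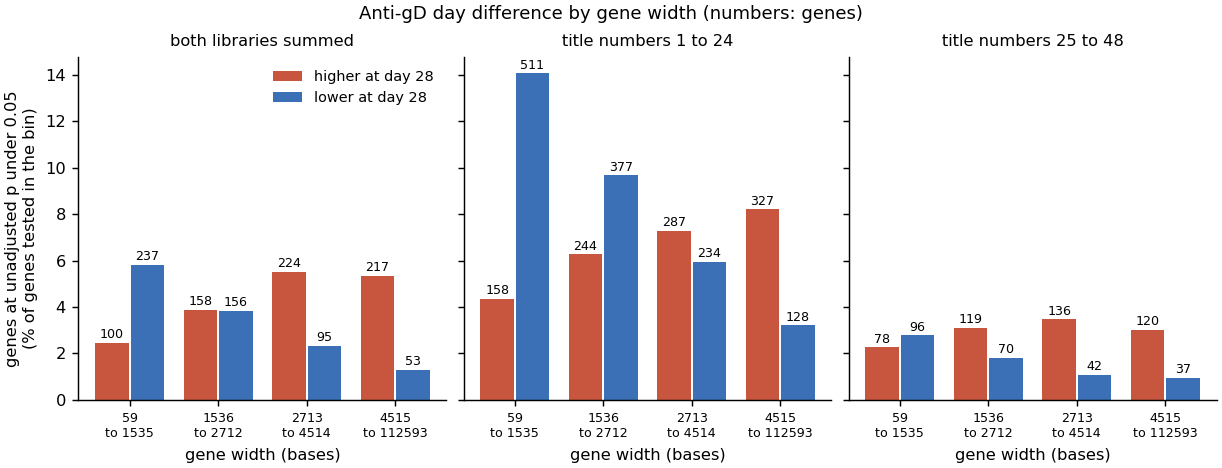
Percent of the genes tested in each of 4 equal bins by width with an unadjusted p under 0.05 that were higher (red) or lower (blue) at day 28 in the anti-gD animals, with the gene numbers above the bars. The narrowest genes have more lower than higher and the widest more higher than lower in the sums (100 and 237 against 217 and 53) and in each library set.

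Abundance showed a weaker gradient of the opposite kind. Of 4 equal bins by abundance, the least abundant (0.195 to 3.36 CPM) had 219 genes higher and 94 lower with a median log2 fold change of 0.06, and the most abundant (49.6 to 31050 CPM) had 104 higher and 165 lower with a median of −0.03. Within the most abundant bin the 433 narrowest genes had a median of −0.15, with 7 higher and 54 lower, and the 1651 widest a median of 0.02, with 62 higher and 19 lower. Within the least abundant bin the 1911 narrowest genes had a median of 0.0010 (67 higher and 56 lower) and the 450 widest a median of 0.13 (26 higher and 8 lower). Wide genes were thus above narrow genes at both ends of the abundance range.

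The same contrast was put as 1 value per animal, the width difference, which is the median deviation of the widest of the 4 bins from the mean over the animals minus that of the narrowest. The 6 day 4 animals had −0.17, −0.16, −0.13, −0.02, 0.04 and 0.07 (log2), and the 6 day 28 animals −0.0014, 0.0024, 0.02, 0.06, 0.07 and 0.13. Day 28 animals were all close to 0 or above, and day 4 animals 2, 3 and 4 lay apart below. The means were 0.05 ± 0.05 at day 28 and −0.06 ± 0.11 at day 4 (SD, n = 6 each), a difference of 0.11 with an exact two-sided permutation p of 0.0671 and an adjusted p of 0.171 over the 9 measures compared. In the single sets the difference was 0.12 (exact permutation p = 0.0455, adjusted 0.0818) and 0.10 (exact permutation p = 0.268, adjusted 0.805).

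Another library measure was lower on average at day 28. The exonic share is here the total count divided by the read number behind the deposited RPKM values, in percent. The sources used here do not state which reads make up that number, and the name is a label only, not a measured fraction of exonic reads. The share lay at 61.5% to 63.6% at day 4 and at 57.6% to 63.9% at day 28. The means were 62.5% ± 0.852 and 60.5% ± 2.13 (SD, n = 6 each), a difference of −1.91 percentage points (exact permutation p = 0.0714, adjusted 0.171). Animal 13 was the day 28 animal above all day 4 animals, at 63.9%. Without it the difference was −2.57 points with an adjusted p of 0.039 (exact permutation), and without any other single animal it was −2.12 to −1.32 points with adjusted p-values of 0.14 to 0.325 (exact permutation). Within the sets the differences were −2.14 points (exact permutation p = 0.0455, adjusted 0.0818) and −1.61 points (exact permutation p = 0.184, adjusted 0.805).

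Over the 12 animals the width difference went down as the exonic share went up (Pearson's r = −0.658, permutation p = 0.0197; Spearman's rho = −0.552, permutation p = 0.0662; this was the 1 relation computed). Without animals 16 and 17, which were farthest from the median exonic share, r was −0.474 over 10 animals. Within day 4 r was −0.578 and within day 28 −0.795, over 6 animals each. When the exonic share was put into the edgeR fit as a covariate, the genes with an unadjusted p under 0.05 went from 1240 to 740 and 1 gene passed. An even spread of p-values over the 16275 genes gives 814. That gene, ENSMFAG00000001100 (1302 bases, named after its values were seen), lay at 0.104 to 0.529 CPM on day 4 and 0.419 to 12.4 CPM on day 28. Its day 28 mean was 2.85 CPM with a larger SD of 4.69 CPM, so the fold change leans on the highest values of a gene of low abundance. The log2 fold change was 3.64 (SE 0.44, edgeR adjusted p = 0.0199), and without the covariate 3.04 (SE 0.83, edgeR adjusted p = 0.551). The exonic share was itself lower on average at day 28, so this fit cannot tell it apart from harvest day. The drop in the number of genes is a description only. What part the exonic share has in the day difference was not tested.

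**Figure D5:**
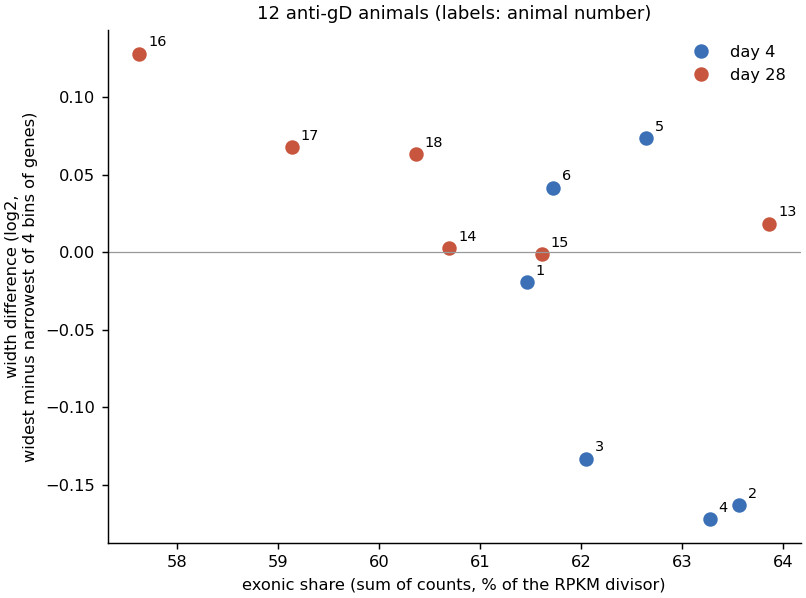
Exonic share of each anti-gD animal (percent) against its width difference (log2), with the animal numbers beside the points. Day 28 animals 16, 17 and 18 are at the upper left and day 4 animals 2, 3 and 4 at the lower right, and animals 13 and 5 lie away from the rest (r = −0.658 over 12 animals).

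None of the other 7 measures passed over the 9 compared either. Total counts differed by 2094000 (exact permutation p = 0.537), genes with a read by 210 per animal, 19680 at day 28 against 19470 at day 4 (exact permutation p = 0.173), and the share of the 13 most abundant IDs was 18.5% ± 5.83 at day 28 and 20.6% ± 3.05 at day 4 (SD, n = 6 each; exact permutation p = 0.455). The first principal component of log2 CPM, with 18.4% of the variance, put every day 28 animal at −0.05 or below and the day 4 animals between −15.6 and 41.6, a difference of −27.1 (exact permutation p = 0.0455, adjusted 0.171). The second, with 15.8%, differed by 8.55 (exact permutation p = 0.509).

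Animals of the same day were hardly more alike than animals of different days. The root mean square distance in log2 CPM was 0.611 on average between animals of different days (0.515 to 0.756) and 0.594 within a day (0.469 to 0.677), a difference of 0.0175 (exact permutation p = 0.0779, adjusted 0.171). The nearest other animal was from the same day for 7 of 12 animals. Day 28 animals lay 0.564 apart and day 4 animals 0.624 (exact permutation p of the difference = 0.0952, adjusted 0.171).

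The libraries of an animal were closer to each other on average than to those of other animals. Libraries of 1 animal were 0.559 apart on average (0.336 to 0.838, 12 pairs), libraries of different animals of a day 0.697 (120 pairs) and libraries of different days 0.707 (144 pairs). For 14 of 24 libraries the nearest was the other library of the animal, for 7 it was one from another animal of the same day and for 3 one from the other day. With the set means removed, the variance of a gene over the 24 libraries split on average into 6.71% between days, 39.9% between animals of a day and 53.4% between the libraries of an animal, over 15858 genes. The day part was estimated at 0 in 60.1% of genes and was above 50% in 1.24%. Negative estimates of the day and animal parts were set to 0, so a mean day part above 0 arises without any day difference.

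Single animals stood apart in some genes, counted in log2 CPM among genes that averaged at least 1 CPM. Day 4 animal 4 was at least 2-fold above all other anti-gD animals in 41 genes and at least 2-fold below all in 27, day 28 animal 13 in 39 and 9, day 4 animal 2 in 6 and 53, and day 4 animal 1 in 2 and 19. In the remaining 8 animals these counts were 3 to 16 above and 2 to 11 below. Animal 13 also had the largest share of counts in the 13 most abundant IDs of all 12, at 28.6%, and the lowest value on the first principal component.

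The animals dosed with hPara.09 gave the day difference in 12 other animals. The difference of the day differences between the antibodies was tested in 1 fit of all 24 animals, and 0 of 16721 genes passed in edgeR (smallest adjusted p = 0.214), with 716 (4.28%) at an unadjusted p under 0.05 and 836 under an even spread. DESeq2 called 1 gene, ENSMFAG00000039796 (144 bases, named after its values were seen; DESeq2 adjusted p = 0.00381). It lay at 0 to 0.0839 CPM in anti-gD day 4, 0.166 to 1.25 CPM in anti-gD day 28, 0.0742 to 0.950 CPM in hPara.09 day 4 and 0.0207 to 0.237 CPM in hPara.09 day 28 (medians 0.0441, 0.415, 0.232 and 0.0557 CPM), so it was low in all 4 groups and lowest in anti-gD day 4.

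Of the 4 IDs chosen on the sums, ENSMFAG00000036375 was the one that differed most between the antibodies. Its hPara.09 animals lay at 4.47 to 8.56 CPM on day 4 (median 7.11) and 6.00 to 8.10 CPM on day 28 (median 7.13), a log2 fold change of 0.04 (SE 0.17), against 1.03 in the controls. Day 4 of the controls was thus the low group of the 4. The difference was −0.99 (SE 0.25), with an edgeR adjusted p of 1, and the 4 IDs had been picked for their values in the control animals, so smaller values in the hPara.09 animals are a description only. ENSMFAG00000000487 had −0.07 in hPara.09 animals against −0.46 in the controls, a difference of 0.39 (SE 0.15, edgeR adjusted p = 1).

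The other pair had like values in both antibody groups. ENSMFAG00000037814 had a log2 fold change of 0.47 (SE 0.13) in hPara.09 animals, with 19.2 to 27.7 CPM on day 4 and 22.8 to 42.2 CPM on day 28, and the difference from the controls was −0.09 (95% interval −0.47 to 0.30). ENSMFAG00000041472 had −0.47 (SE 0.11), with 32.4 to 46.2 CPM and 25.2 to 33.7 CPM, and the difference was 0.05 (95% interval −0.28 to 0.37). The edgeR adjusted p within the hPara.09 animals was 0.0794 and 0.0613, so neither passed there.

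The width difference was also larger at day 28 in the hPara.09 animals. Scaled over all 24 animals it lay at −0.18 to 0.02 on day 4 and 0.04 to 0.14 on day 28 with no overlap, a difference of 0.17 (exact permutation p = 0.00216, the smallest that the relabellings can give; adjusted 0.00649 over 3 tests). In the anti-gD animals on this scale the difference was 0.10 (exact permutation p = 0.0714, adjusted 0.107). The antibodies differed by −0.07 in it (permutation p = 0.234). The exonic share was not compared between the hPara.09 days here.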

How the data were processed

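RNA came from frontal cortex punches by a lipid tissue kit with DNase treatment, per the labels. The deposited table of each library gave the authors' whole-number exonic read count per gene, a gene width and an RPKM value; GSNAP is named in the submitters' processing notes. Its version and the build, annotation and strand handling were not given in the sources used here, so overlapping or near-identical genes are uncertain. The deposited RPKM values served only to recover the read number behind them. Here the counts of an animal's libraries, joined by animal label, were summed and tested with edgeR 4.0.16 in R 4.3.3 (TMM scaling, default low-count filter, which kept 99.96% of counts, robust quasi-likelihood, two-sided, Benjamini-Hochberg at 0.05); limma 3.58.1 and DESeq2 1.42.0 were alternatives. Log2 CPM used a prior count of 2. Named IDs were the 2 higher and 2 lower with the smallest p at a mean of at least 1 CPM, for the sums and for title numbers 1 to 24; others are marked. Distances, the width difference and the spread within days were added to the measures first listed. Members and lists were chosen with earlier results of these data known. Scripts were tested on simulated data. P-values set a difference against the spread between animals. Those of the difference between the sets rest instead on how the difference between an animal's libraries varies among animals.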

Additional observations from a re-analysis of the deposited data

Results flagged for a closer look

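Among 30 sets of 6 animals (named IDs and measures, each day), 1 had an animal far from the others, where about 1 in 20 is found by chance. ENSMFAG00000000487 stood at 47.1 CPM in day 4 animal 4, and the other 5 day 4 animals lay at 33.2 to 37.8 CPM. It lay on the side away from day 28, so leaving it out could not make the days overlap.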

How the results depend on the processing

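The count of 0 genes passing between the control days held in every alternative but DESeq2 (37 genes) and the exonic share as a covariate (1 gene), and in each fit that left out 1 animal (0 to 0 genes). Genes at an unadjusted p under 0.05 numbered 2266 with title numbers 1 to 24, 698 with 25 to 48, 740 with the covariate and 870 to 1829 with 1 animal left out. Of the 8 named IDs, ENSMFAG00000000942 changed sign, to −0.133 with title numbers 25 to 48. The difference between the sets gave 1 gene in limma voom, 0 to 4 genes with 1 animal left out, and 613 to 3554 genes at an unadjusted p under 0.05. That between the antibodies gave 1 gene in DESeq2, 0 to 0 with 1 animal left out, and at an unadjusted p under 0.05 1718 genes with title numbers 1 to 24, 398 with 25 to 48 and 629 to 880 with 1 animal left out. Among the measures, title numbers 25 to 48 gave 0.000151 for the spread within days, and the exonic share differed by −2.57 to −1.32 with 1 animal left out. Principal components were recomputed for each subset and need not be the same axes, so their signs show no reversal: with title numbers 25 to 48 the first differed by 10.6 and the second by −22.4, and the second by −9.12 without library 29 (chosen after seeing the data) and by −2.22 to 23.4 with 1 animal left out. The cause was not tested.

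With 6 animals a day the interval lay inside 2-fold for 87.1% of genes, and for the rest it reached past 2-fold. No paired analysis of the days was possible because the animals harvested on different days were separate animals.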

Other observations

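In 9 IDs at least 2 animals had 1 CPM or more in both libraries (called on here) while at least 2 had no read in either. None of these split by day: at most 2 day 28 and 3 day 4 animals were on, and 0 had all 6 animals of one day on and all of the other off. The highest of them, ENSMFAG00000037199, reached 9.75 CPM in the top animal and was on in 2 day 28 animals and no day 4 animal, and without a read in 2 day 4 animals and no day 28 animal. ENSMFAG00000011493 was on in 3 day 4 animals and 1 day 28 animal, and without a read in 3 day 28 animals. Both were named after their values were seen.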
